A study of Mus musculus with 12 samples.

Results

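The genes described here are 6 of the 56441 in the count table, chosen by symbol for their part in making, exporting, using or controlling ketone bodies: Acat1, Bdh1, Slc16a1, Slc16a6, Oxct1 and Sirt3 (ACAT1, BDH1, SLC16A1, SLC16A6, OXCT1 and SIRT3 in the table, which writes symbols in capitals). All 6 passed the filter on low counts that left 15228 genes to test. The 12 libraries of mouse liver RNA fell into 4 groups of 3. C57BL/6 mice fasted for 24 h had received either the empty AAV8 vector (fasted vector) or AAV8 carrying fumarate hydratase (fasted FH). The ob/ob mice, which lack leptin and were fed a high-fat diet (HFD), had received either the vector (ob/ob vector) or FH (ob/ob FH). The mice were injected at 6 to 8 weeks of age and sampled 1 month later. AAV8 is a virus serotype that infects hepatocytes well, and FH is the enzyme of the citrate cycle that turns fumarate into malate. Every group carries the virus, and the 2 models differ in leptin, diet and feeding state together, so these cannot be told apart. The promoter that drives FH and the species of its sequence were not given in the sources used here. The labels name the tissue as liver and the cell type as hepatocyte. They do not state whether each library is a mouse of its own, so p-values measure the spread between these libraries, which may be technical.

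Ketone bodies are the water-soluble fuel that the liver makes from fatty acids during fasting. In hepatocyte mitochondria, acetoacetyl-CoA thiolase (Acat1) joins acetyl-CoA units, further enzymes then make acetoacetate, and 3-hydroxybutyrate dehydrogenase (Bdh1) reduces it to 3-hydroxybutyrate. The products leave through monocarboxylate carriers such as MCT1 (Slc16a1) and MCT7 (Slc16a6). Other organs burn them through succinyl-CoA:3-ketoacid CoA transferase (Oxct1), which hepatocytes hardly make, and the mitochondrial deacetylase SIRT3 acts on several enzymes of fat and ketone metabolism.

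The libraries held 12231828 to 14884323 counts (fasted vector), 19107050 to 25873379 (fasted FH), 12573267 to 14496559 (ob/ob vector) and 21632289 to 23506015 (ob/ob FH). Levels below are CPM, counts scaled to a common library size, after TMM scaling, which assumes that most genes do not change, and ± is the SD of 3 libraries. TMM factors were 1.12 to 1.37 for vector and 0.722 to 0.907 for FH libraries, so fold changes on unscaled library totals are given beside them. On library totals the median FH effect over all genes tested was -0.71 log2 units in the fasted and -0.63 in the ob/ob livers, against -0.044 and -0.011 with TMM. Fh1, the mouse fumarate hydratase gene, was higher with FH in both models, from 319 ± 85.4 to 812 ± 104 CPM (fasted) and from 122 ± 17.9 to 679 ± 106 CPM (ob/ob). The 9 hepatocyte markers summed to between 49122 and 75291 CPM (vector) and between 142480 and 176719 CPM (FH), and none was at 0. Malat1, a nuclear RNA, had 358 to 558 CPM in vector and 12.7 to 80.9 CPM in FH libraries, 6 of each. The 3 ob/ob FH libraries held 0 counts of the Y-linked genes Ddx3y, Eif2s3y, Kdm5d and Uty and 2242 to 4992 counts of Xist, whereas the other 9 held 1 to 24 counts of Xist. For ob/ob mice, sex and FH therefore cannot be told apart. Within the ob/ob vector group, replicate 2 stood apart: Hsd3b5, a male liver steroid enzyme, had 6355 counts there against 1 and 0, and Dbp, a circadian output gene, 8 counts against 615 and 702. Dbp differed between other groups too, with 2.39 to 5.81 CPM (fasted vector) and 45.8 to 63.2 CPM (fasted FH). The part of RNA make-up, sex or time of day in the values below was not tested.

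Set against exon length, the genes spanned over 2 orders of magnitude, with the synthesis enzymes highest. In CPM per kilobase of exon (GENCODE M21), Acat1 averaged 163 ± 36.9 (fasted vector), 179 ± 22.5 (fasted FH), 176 ± 57.5 (ob/ob vector) and 171 ± 19.1 (ob/ob FH). Bdh1 came next with 37.7 ± 15.3, 101 ± 8.43, 62.5 ± 21.7 and 115 ± 18.9 in the same order, and its libraries lay below those of Acat1 in every group. Sirt3 averaged 16.0 ± 2.68, 12.7 ± 0.590, 13.6 ± 1.00 and 9.58 ± 0.420, and Slc16a1 10.3 ± 3.33, 15.6 ± 2.87, 12.4 ± 3.65 and 27.4 ± 1.05. Their ranges overlapped in the fasted FH and ob/ob vector groups, Sirt3 was above Slc16a1 in every fasted vector library (nearly level in replicate 1), and Slc16a1 was above Sirt3 in every ob/ob FH library. The lowest levels were those of Oxct1, at 1.38 ± 0.195, 0.694 ± 0.0527, 1.21 ± 0.293 and 1.43 ± 0.242, and of Slc16a6, at 1.29 ± 0.137, 0.365 ± 0.0526, 1.88 ± 0.239 and 1.26 ± 0.253. These 2 overlapped in the fasted vector and ob/ob FH groups and did not in the others.

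**Figure D1:**
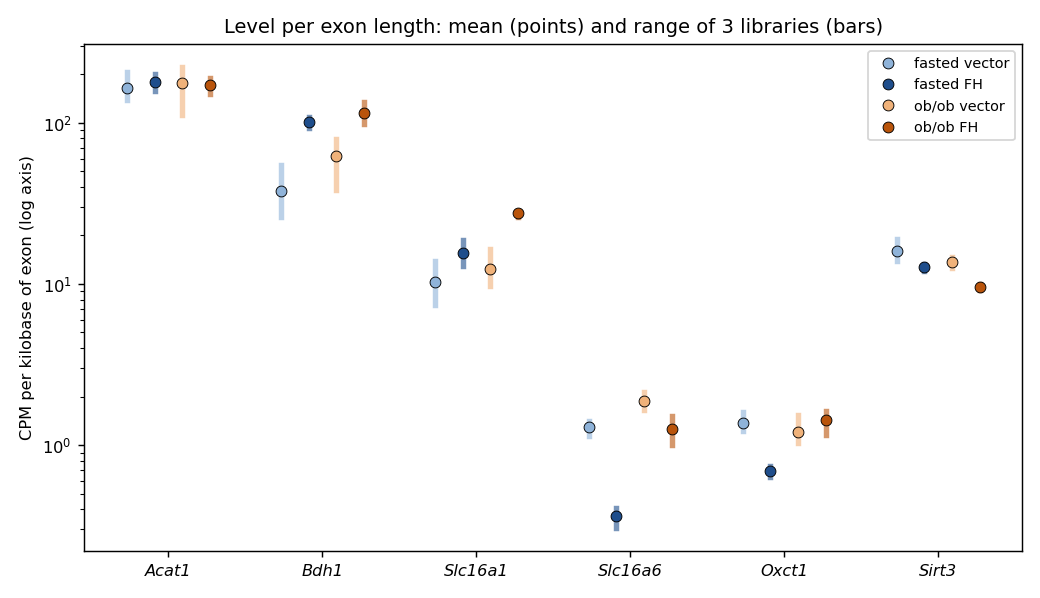
Mean level of the 6 genes in CPM per kilobase of exon (log axis), with bars from the lowest to the highest of 3 libraries per group. Acat1 stays near 163 to 179 in all 4 groups, Bdh1 lies higher in the FH groups, and Slc16a6 is lowest in the fasted FH group.

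With FH in the fasted livers, 2 of the 6 genes rose (Bdh1 and Slc16a1), 3 fell (Slc16a6, Oxct1 and Sirt3) and Acat1 did not pass the test, which was edgeR's quasi-likelihood test with adjusted p under 0.05 (Benjamini-Hochberg over all genes tested). Of all genes tested, 27.4% rose and 27.6% fell, so a share of calls like this is common in the comparison. With FH in the ob/ob livers, 2 rose (Bdh1 and Slc16a1) and 2 fell (Slc16a6 and Sirt3), against 25.8% and 27.9% of all genes tested. The median log2 fold change of the 6 genes was -0.10 (fasted) and 0.10 (ob/ob), beside -0.044 and -0.011 for all genes tested. On library totals 1 rose and 3 fell in each model, while of all genes called 11.4% were higher in the fasted and also in the ob/ob comparison, against 49.8% and 48.1% with TMM. Leaving out ob/ob vector replicate 2 left these counts of the 6 genes as they were in both models.

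**Figure D2:**
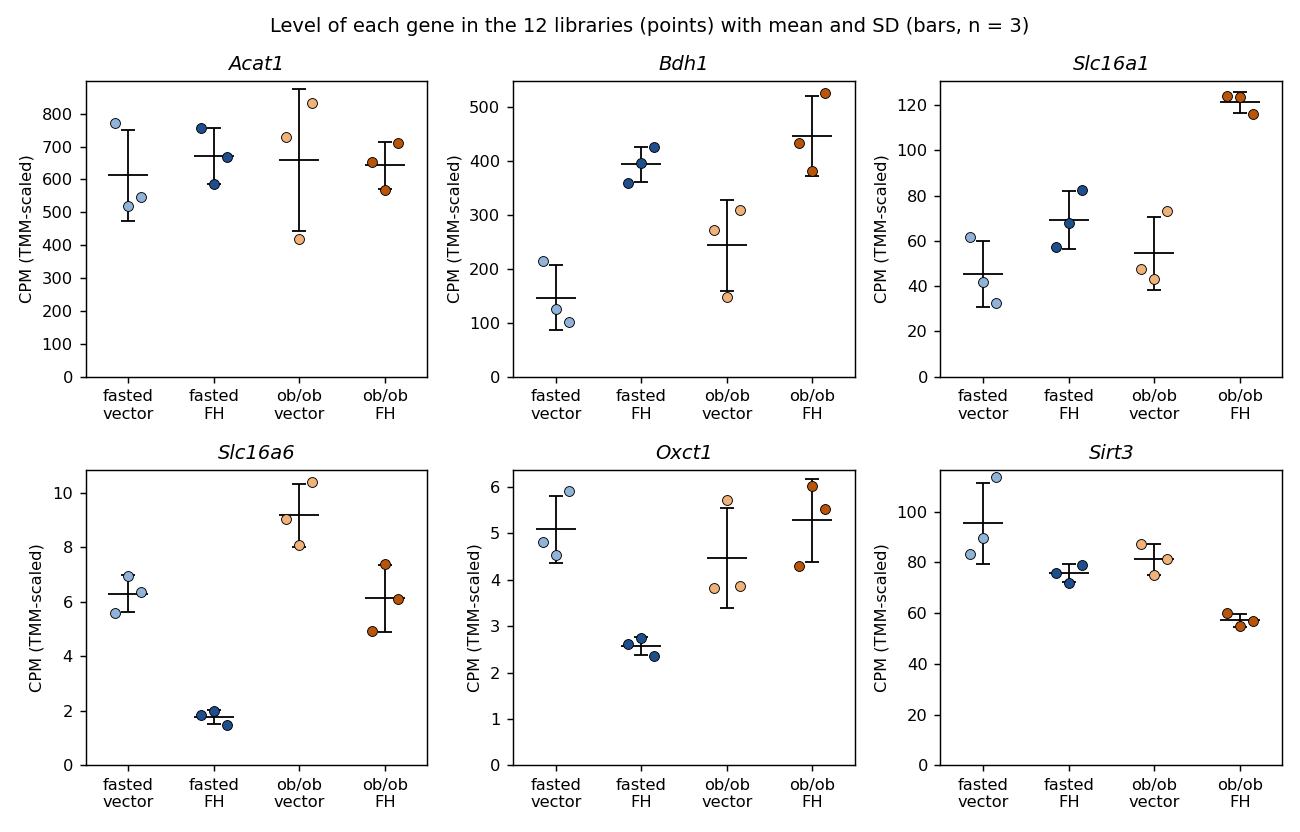
TMM-scaled CPM of each gene in every library (points), with the mean and SD of 3 libraries per group (bars). Bdh1 is higher in all FH libraries than in the vector libraries of the same model, Slc16a6 is lower, and Oxct1 is low in the fasted FH group alone.

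Bdh1 was the synthesis gene that rose with FH. In the fasted livers it stood at 214, 126 and 100 CPM with the vector (replicates 1, 2 and 3) and at 359, 395 and 425 CPM with FH. The groups did not overlap, and vector replicate 1 was the highest of its group. The rise was 2.68-fold (log2 fold change 1.42, SE 0.29, edgeR adjusted p = 9.19e-04), and on library totals it was 0.76 log2 units (adjusted p = 0.0275). Bdh1 in the ob/ob livers stood at 272, 148 and 309 CPM with the vector and at 433, 380 and 526 CPM with FH. Again every FH library was above every vector library, and the low vector value was that of replicate 2, the library that stood apart. The ob/ob rise was 1.84-fold (log2 0.88, SE 0.28, edgeR adjusted p = 0.0178), and without ob/ob vector replicate 2 it was 0.63 log2 units (adjusted p = 0.0413). It missed the threshold without ob/ob FH replicate 3 (0.72, edgeR adjusted p = 0.0792) and on library totals (0.26, edgeR adjusted p = 0.436). The rises in the 2 models differed by -0.55 log2 units (ob/ob minus fasted), with a 95% interval of -1.40 to 0.31 and edgeR adjusted p = 0.433.

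Acat1, the thiolase of the opening step, did not pass the test with FH in either model. Its levels were 772, 520 and 546 CPM in the fasted vector libraries and 756, 587 and 669 CPM with FH. The ob/ob levels were 730, 418 and 833 CPM with the vector and 653, 567 and 709 CPM with FH. The groups overlapped in both models, and the lowest value of the 12 was again in ob/ob vector replicate 2. The 95% interval of the log2 fold change was -0.37 to 0.63 around 0.13 (fasted, edgeR adjusted p = 0.655) and -0.54 to 0.46 around -0.038 (ob/ob, edgeR adjusted p = 0.903). On library totals Acat1 fell by 0.66 log2 units in the ob/ob livers (edgeR adjusted p = 0.0240), close to the median of all genes on that scale, and stood at -0.54 (adjusted p = 0.0551) in the fasted livers.

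Of 5 other tested enzymes of ketone body and acetoacetyl-CoA metabolism, 5 rose and 0 fell with FH in the fasted livers (median log2 0.90), and 3 rose and 0 fell in the ob/ob livers (median 0.62). At an unadjusted p under 0.05 edgeR also had 0 of them lower in each model. Of all genes tested, 27.4% and 25.8% rose, with medians of -0.044 and -0.011. The rise was not particular to these enzymes: 8 of 9 hepatocyte markers rose in each model (medians 1.31 and 1.11). On library totals 1 of the 5 enzymes rose and 0 fell (fasted), and 0 rose and 0 fell (ob/ob). Aacs, which activates acetoacetate in the cytosol, rose by 2.02 (SE 0.44, edgeR adjusted p = 0.00154) in the fasted and 1.18 (SE 0.37, adjusted p = 0.0147) in the ob/ob livers. Acat2, a cytosolic thiolase, rose by 0.90 (SE 0.24, edgeR adjusted p = 0.00688) and 0.99 (SE 0.24, adjusted p = 0.00318), and was at 0.23 and 0.37 on library totals. Acat3, a close relative of Acat2, rose with FH by 0.55 in ob/ob livers (SE 0.16, edgeR adjusted p = 0.0124) and was at -0.084 on library totals, and reads shared between such paralogs may be split between them. Bdh2, a cytosolic dehydrogenase, rose in the fasted livers by 1.21 (SE 0.36, edgeR adjusted p = 0.0109).

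**Figure D3:**
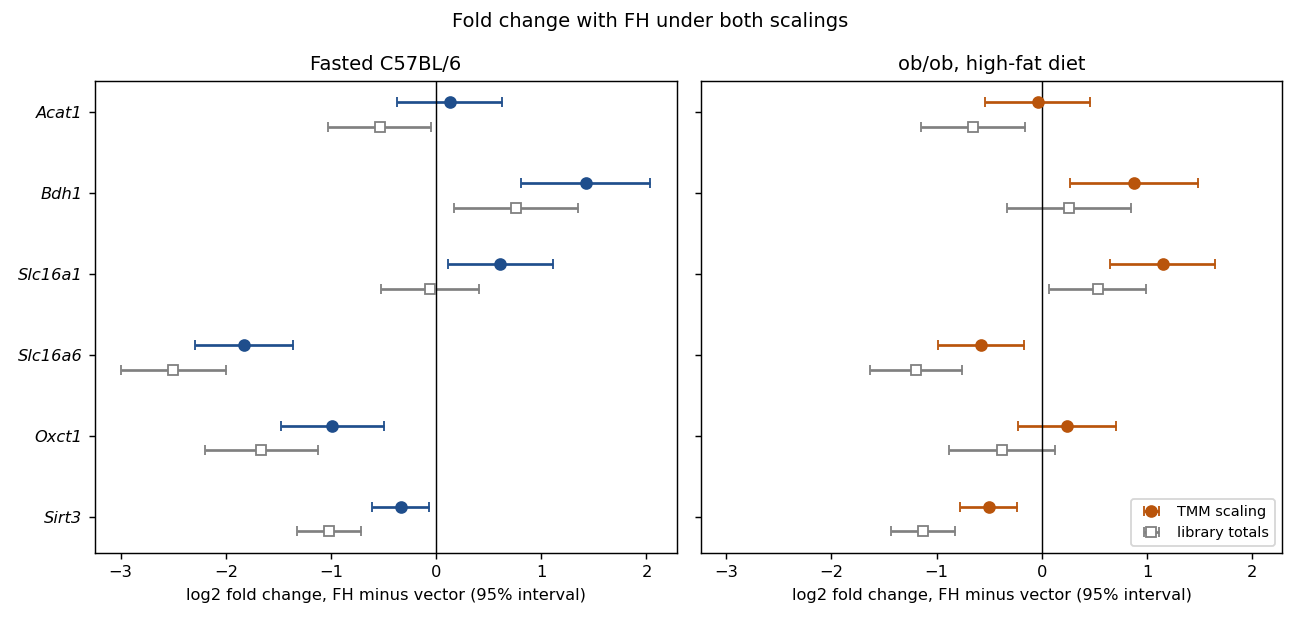
Log2 fold change of FH against vector with its 95% interval, on TMM-scaled counts (circles) and on library totals (squares), for the fasted (left) and ob/ob livers (right). Each gene shifts to lower values on library totals, Slc16a6 and Sirt3 stay below 0 on both scales, and Slc16a1 in the fasted livers moves from 0.61 to -0.055.

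A ratio of 2 genes' counts within a library does not depend on how libraries are scaled. Bdh1 to Acat1 averaged 0.234 ± 0.0469 (fasted vector), 0.594 ± 0.105 (fasted FH), 0.366 ± 0.00980 (ob/ob vector) and 0.692 ± 0.0430 (ob/ob FH). The FH libraries were above the vector libraries in both models without overlap, and the ob/ob vector libraries, replicate 2 included, spanned 0.355 to 0.373. Slc16a1 to Acat1 averaged 0.0734 ± 0.0117 and 0.105 ± 0.0255 in fasted livers, where vector and FH overlapped. The ob/ob averages were 0.0855 ± 0.0190 and 0.191 ± 0.0275, and all FH libraries lay above all vector libraries. These ratios are given as descriptions without a test.

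**Figure D4:**
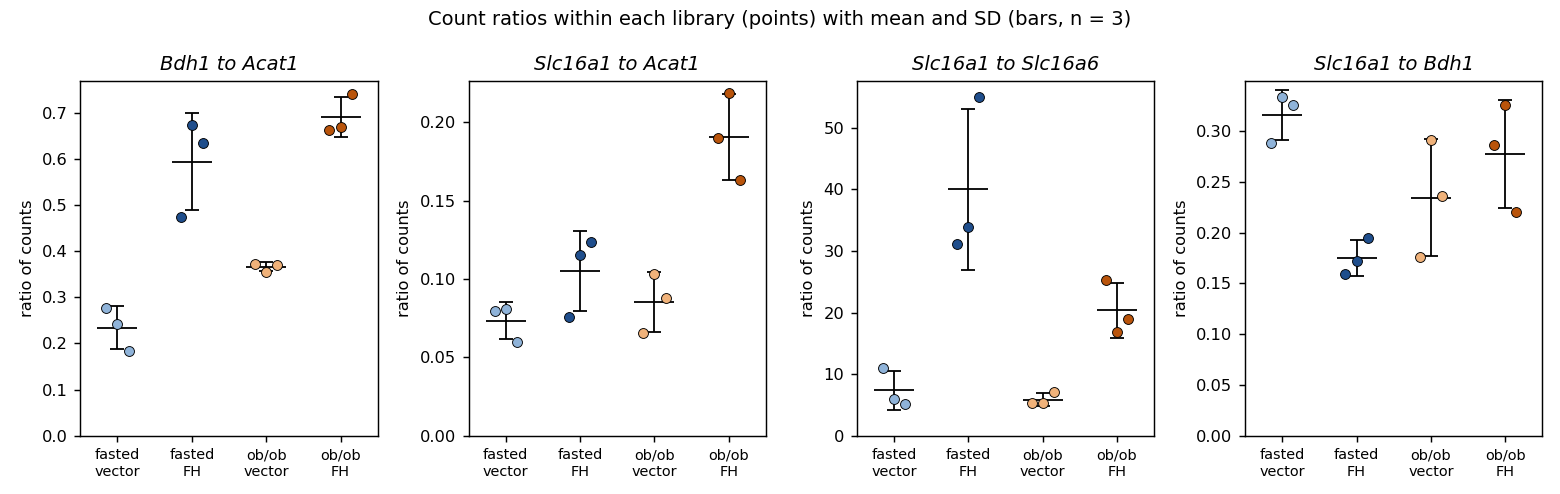
Ratio of the counts of 2 genes within each library (points), with the mean and SD of 3 libraries per group (bars). Bdh1 to Acat1 is higher in the FH groups, Slc16a1 to Acat1 is highest in the ob/ob FH group, and Slc16a1 to Slc16a6 is higher in the FH groups.

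The 2 export carriers went in opposite directions. Slc16a1 encodes MCT1, the carrier that moves lactate, pyruvate and ketone bodies with a proton. In the fasted livers its levels were 61.6, 41.9 and 32.7 CPM with the vector and 57.3, 67.9 and 82.6 CPM with FH. Vector replicate 1 exceeded FH replicate 1, so the groups overlapped. The rise was 1.53-fold (log2 0.61, SE 0.23, edgeR adjusted p = 0.0380). The call was lost without any 1 of 6 libraries, namely fasted vector replicates 2 and 3, fasted FH replicates 2 and 3 and ob/ob FH replicates 1 and 3, with 0.44 to 0.84 log2 units and edgeR adjusted p = 0.00835 to 0.152 over all 12 fits. On library totals it was -0.055 (edgeR adjusted p = 0.838). Slc16a1 in the ob/ob livers stood at 47.8, 43.1 and 73.1 CPM with the vector and at 124, 124 and 116 CPM with FH. The FH libraries were close together and above all vector libraries. The rise was 2.22-fold (log2 1.15, SE 0.23, edgeR adjusted p = 9.82e-04), 0.53 on library totals (adjusted p = 0.0475) and 1.02 (adjusted p = 0.00214) without ob/ob vector replicate 2. The difference between the models was 0.54 log2 units (95% interval -0.16 to 1.24, edgeR adjusted p = 0.334).

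Slc16a6 encodes MCT7, a carrier known for the export of 3-hydroxybutyrate from fasting liver. It was read at 26 to 199 counts a library, which limits its precision. In the fasted livers it stood at 5.60, 6.94 and 6.37 CPM with the vector and at 1.84, 2.00 and 1.499 CPM with FH. The lowest vector library was over 2 times the highest FH library. The fall was 3.55-fold (log2 -1.83, SE 0.22, edgeR adjusted p = 1.78e-05) and -2.50 log2 units on library totals. With ob/ob its levels were 9.04, 8.09 and 10.4 CPM with the vector and 4.92, 7.38 and 6.10 CPM with FH. The groups did not overlap, although FH replicate 2 came near vector replicate 2. This fall was 1.497-fold (log2 -0.58, SE 0.19, edgeR adjusted p = 0.0196) and -1.20 on library totals, and it missed the threshold without ob/ob vector replicate 3 (-0.46, edgeR adjusted p = 0.0856) and without ob/ob FH replicate 1 (-0.46, adjusted p = 0.0783). Between the models the fall differed by 1.25 log2 units, smaller in ob/ob (SE 0.29, edgeR adjusted p = 0.0186, without ob/ob FH replicate 2 1.09 and 0.0574). Within libraries, the ratio of Slc16a1 to Slc16a6 counts averaged 7.39 ± 3.16 (fasted vector), 40.0 ± 13.1 (fasted FH), 5.88 ± 0.992 (ob/ob vector) and 20.3 ± 4.39 (ob/ob FH), and the FH libraries were above the vector libraries in both models. Slc16a1 to Bdh1 was 0.288 to 0.333 (fasted vector) and 0.159 to 0.194 (fasted FH) without overlap, whereas the ob/ob groups overlapped.

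Amz2, a metalloprotease gene on the opposite strand, shares 1052 bases with the exons of Slc16a6, 21.54% of their length, and Arsg, a sulfatase gene that starts 224 bases away, shares 48 bases (GENCODE M21, GRCm38). The library kit keeps the strand, but the strand setting of the counting was not given in the sources used here, so reads of Slc16a6 and Amz2 may not be separable. Amz2 rose in the fasted livers by 0.61 log2 units (edgeR adjusted p = 0.00385) while Slc16a6 fell, and it was at -0.057 on library totals. Amz2 in the ob/ob livers was at 0.31 (edgeR adjusted p = 0.0895). Arsg was at -0.65 (edgeR adjusted p = 0.0501) and 0.11 (adjusted p = 0.746).

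Of 11 other tested monocarboxylate carriers and their partner proteins, 6 rose and 1 fell with FH in the fasted livers (median log2 1.07), and 3 rose and 1 fell in the ob/ob livers (median 0.91). On library totals 3 rose and 2 fell, and 2 rose and 2 fell. With TMM 27.4% of all genes tested rose and 27.6% fell (fasted), and 25.8% rose and 27.9% fell (ob/ob). The medians over all genes tested were -0.044 and -0.011. So 3 rising of 11 in the ob/ob livers is near the share of all genes. Bsg, basigin, the partner that brings MCT1 to the cell surface, rose by 1.07 (SE 0.16, edgeR adjusted p = 9.27e-05) in the fasted and 1.39 (SE 0.16, adjusted p = 1.40e-05) in the ob/ob livers, and on library totals by 0.40 and 0.77. Slc16a10, a carrier of aromatic amino acids, rose by 1.16 (SE 0.18, edgeR adjusted p = 1.55e-04) and 0.91 (SE 0.18, adjusted p = 0.00102), and was at 0.49 and 0.28 on library totals. Slc16a4, a carrier of the same family, was the one that fell, from 56 to 69 counts a library to 7 to 11 in the fasted livers (log2 -2.92, SE 0.44, edgeR adjusted p = 1.07e-04), and from 86 to 107 counts to 1 to 15 in the ob/ob livers (log2 -3.80, SE 0.45, adjusted p = 1.61e-05).

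The stretches upstream of Slc16a1 and Bdh1 are shown because both genes rose with FH in both models after TMM scaling. On library totals Slc16a1 passed the test in the ob/ob livers alone and Bdh1 in the fasted livers alone. They come from RefSeq (GRCm38.p6), whose table held 4 of the 6 genes, and stop before the start and before any annotated exon. The first covers the 250 bases before the start of Slc16a1 (chr3:104638414-104638663, + strand, GC content 76.4%), and the second covers 233 bases from 250 to 18 before the first start of Bdh1 (chr16:31422047-31422279, + strand, GC content 49.8%). Capitals mark matches to any of 5 motifs searched on both strands.
Slc16a1: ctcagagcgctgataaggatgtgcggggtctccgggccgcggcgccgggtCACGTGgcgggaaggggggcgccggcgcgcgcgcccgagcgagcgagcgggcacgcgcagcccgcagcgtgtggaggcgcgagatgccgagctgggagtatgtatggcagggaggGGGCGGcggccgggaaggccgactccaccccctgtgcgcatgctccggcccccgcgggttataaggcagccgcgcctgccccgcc
Bdh1: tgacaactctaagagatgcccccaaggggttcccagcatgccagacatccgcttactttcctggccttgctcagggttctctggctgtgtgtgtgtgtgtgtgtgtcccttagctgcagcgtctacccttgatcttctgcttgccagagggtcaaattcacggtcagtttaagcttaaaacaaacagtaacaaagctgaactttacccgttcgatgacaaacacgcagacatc
The motifs were the E-box CACGTG, found in 6.02% of 32851 windows of 250 bases, the GC box GGGCGG (32.7%), CCAAT (33.8%), the nuclear receptor motif AGGTCA (14%) and the direct repeat of AGGTCA with 1 base between the copies (0.0335%), which contains it. Slc16a1 held CACGTG with its first base 200 bases before the start and GGGCGG 85 bases before it. These letters were not found in the Bdh1 stretch. Gm15743, an antisense gene, shares 533 bases with Bdh1 exons, 13.71% of their length. It had 9 to 21 counts a library (fasted vector) and 0 to 5 (fasted FH), against the 18938 counts of Bdh1 summed over the fasted FH libraries.

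Oxct1, the enzyme that lets other organs use ketone bodies, was read at 37 to 118 counts a library. In the fasted livers it stood at 4.82, 4.54 and 5.91 CPM with the vector and at 2.61, 2.74 and 2.36 CPM with FH. All 3 FH libraries were below all vector libraries. The fall was 1.98-fold (log2 -0.99, SE 0.23, edgeR adjusted p = 0.00254) and -1.66 log2 units on library totals. Its ob/ob levels were 3.83, 5.72 and 3.87 CPM with the vector and 4.29, 6.03 and 5.53 CPM with FH. These groups overlapped, with vector replicate 2 the highest of its group. The difference with FH was 0.24 log2 units (95% interval -0.22 to 0.70, edgeR adjusted p = 0.366), and -0.38 (adjusted p = 0.185) on library totals. Without ob/ob vector replicate 2 it was 0.47 (edgeR adjusted p = 0.0936). The FH effects differed between the models by 1.23 log2 units (SE 0.31, edgeR adjusted p = 0.0306). That difference kept its side of the threshold in 4 of the 12 fits with a library left out, with 1.11 to 1.44 log2 units and edgeR adjusted p = 0.00954 to 0.0848. The libraries without which it missed the threshold were fasted vector replicate 3, all 3 of fasted FH, ob/ob vector replicates 1 and 3 and ob/ob FH replicates 2 and 3.

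Markers of cells other than hepatocytes are given beside the Oxct1 values. The 8 markers of sinusoidal endothelium summed to 390 to 485 CPM (fasted vector) and 161 to 185 CPM (fasted FH), and 8 of 8 fell. The ob/ob sums were 274 to 338 CPM with the vector and 308 to 364 CPM with FH, and 3 rose and 1 fell. On library totals these ob/ob sums were 375 to 446 and 254 to 330 CPM, and 1 rose and 5 fell. The 9 markers of Kupffer cells and macrophages summed to 435 to 589 and 214 to 246 CPM in the fasted groups (7 of 9 fell). The ob/ob sums of these were 308 to 481 and 609 to 847 CPM (7 of 9 rose). The 8 stellate cell markers summed to 275 to 333 and 145 to 251 CPM in the fasted groups (2 fell), against ob/ob sums of 276 to 287 and 357 to 441 CPM (5 rose). The 7 lymphocyte markers summed to 21.1 to 31.3 and 6.35 to 8.69 CPM in the fasted groups (2 fell), against ob/ob sums of 30.8 to 39.5 and 13.97 to 27.2 CPM (2 rose and 2 fell). With TMM 27.6% of all genes tested fell in the fasted livers, so 2 falling of 8 stellate or 7 lymphocyte markers is common. On library totals 8 endothelial, 8 Kupffer and macrophage, 7 stellate and 5 lymphocyte markers fell in the fasted livers and 0 rose. In the ob/ob livers on that scale, 3 Kupffer and macrophage markers rose and 1 fell. Of the stellate markers 2 rose and 1 fell there, and of the lymphocyte markers 0 rose and 3 fell. Of all genes called on library totals, 11.4% were higher in each model. The 5 cholangiocyte markers summed to 25.8 to 35.1 CPM (fasted vector) and 22.8 to 33.1 CPM (fasted FH). Of these 5, 0 were called with FH in either model after TMM scaling. On library totals 2 fell in the fasted and 0 in the ob/ob livers. No marker of these lists was at 0 in all libraries of a group. Fewer cells of a type and less RNA per cell cannot be told apart in bulk tissue, and the part of these cells in the Oxct1 values was not tested. BC037032, a transcript on the other strand that shares 467 bases with Oxct1 exons, had 0 to 2 counts a library.

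Sirt3, the mitochondrial deacetylase, was lower with FH in both models. In the fasted livers it stood at 83.2, 89.7 and 114 CPM with the vector and at 76.0, 72.0 and 79.0 CPM with FH. The groups did not overlap, and the vector group was the more spread, with replicate 3 the highest. The fall was 1.26-fold (log2 -0.34, SE 0.13, edgeR adjusted p = 0.0369) and was not called without any 1 of 7 libraries: fasted vector replicate 3, all 3 of fasted FH, ob/ob vector replicates 1 and 3 and ob/ob FH replicate 2. Without fasted vector replicate 3 it was -0.18 log2 units (edgeR adjusted p = 0.236), and with no filter on low counts -0.36 (adjusted p = 0.0799). Sirt3 in the ob/ob livers stood at 87.2, 75.2 and 81.2 CPM with the vector and at 59.9, 54.9 and 56.8 CPM with FH. Here both groups were tight and well apart. The fall was 1.42-fold (log2 -0.50, SE 0.13, edgeR adjusted p = 0.00427), with adjusted p = 0.00218 to 0.0250 over the 12 fits with a library left out. On library totals the falls were -1.01 and -1.13 log2 units. The effects in the models differed by -0.17 (95% interval -0.55 to 0.21, edgeR adjusted p = 0.608).

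Sirt3 lies head to head with Psmd13, a proteasome subunit gene on the other strand whose start is 341 bases away and which shares 342 bases with Sirt3 exons, and Ric8a shares 418 bases. Psmd13 rose by 0.63 (edgeR adjusted p = 0.00236) and 0.76 (adjusted p = 7.29e-04) log2 units in the fasted and ob/ob livers, and was at -0.035 and 0.14 on library totals. The ratio of Sirt3 to Psmd13 counts was 0.731 to 1.30 (fasted vector), 0.483 to 0.524 (fasted FH), 1.12 to 1.45 (ob/ob vector) and 0.509 to 0.571 (ob/ob FH), without overlap in either model. Ric8a was at -0.0016 (edgeR adjusted p = 0.992) and -0.24 (adjusted p = 0.102). The shared bases are 5.73% (Psmd13) and 7.0% (Ric8a) of the exon length of Sirt3. The strand setting of the counting was not given, so reads of Sirt3 and these neighbours may not be separable there.

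Of the 6 other sirtuins, 2 rose and 4 fell with FH in the fasted livers (median log2 -0.54), and 2 rose and 3 fell in the ob/ob livers (median -0.39). The shares of all genes tested were 27.4% rising and 27.6% falling (fasted), and 25.8% and 27.9% (ob/ob). Sirt7, a nuclear deacetylase, fell by 0.69 (SE 0.12, edgeR adjusted p = 2.35e-04) and 0.66 (SE 0.12, adjusted p = 3.69e-04), and Sirt1, another nuclear member, fell in ob/ob livers by 1.30 (SE 0.22, edgeR adjusted p = 2.33e-04). Sirt2, a largely cytosolic deacetylase, rose by 0.58 (SE 0.12, edgeR adjusted p = 0.00108) and 0.63 (SE 0.12, adjusted p = 6.38e-04), but was at -0.089 and 0.0058 on library totals, where 0 of the 6 rose and 4 fell in each model. Of all genes called on library totals, 11.4% were higher in each model. Sirt5, a mitochondrial desuccinylase, rose by 0.78 (SE 0.19, edgeR adjusted p = 0.00315) in the fasted livers and was at 0.11 on library totals.

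Most of the 18 genes listed as targets of SIRT3 deacetylation rose with FH in RNA, which does not measure deacetylation. With FH 16 rose and 0 fell in the fasted livers (median log2 1.11), and 13 rose and 0 fell in the ob/ob livers (median 0.79), with 1 and 0 lower at edgeR's unadjusted p under 0.05. Of all genes tested, 27.4% and 25.8% rose, with medians of -0.044 and -0.011. The rise was not particular to this list: 8 of 9 hepatocyte markers rose in each model (medians 1.31 and 1.11). Among those that rose in both models is Acss2, a cytosolic acetyl-CoA synthetase better known as a target of SIRT1. On library totals 10 rose and 1 fell, and 6 rose and 2 fell. Lonp1, a matrix protease, rose by 1.40 (SE 0.13, edgeR adjusted p = 3.41e-06) and 0.93 (SE 0.13, adjusted p = 4.74e-05). Aldh2, the mitochondrial aldehyde dehydrogenase, rose by 1.49 (SE 0.15, edgeR adjusted p = 6.60e-06) and 1.25 (SE 0.15, adjusted p = 2.17e-05). Sdha, a subunit of succinate dehydrogenase, rose by 1.48 (SE 0.14, edgeR adjusted p = 3.49e-06) and 0.97 (SE 0.13, adjusted p = 5.38e-05).

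Among 18 genes that control ketogenesis, 11 rose and 1 fell with FH in the fasted livers (median log2 0.56), and 7 rose and 3 fell in the ob/ob livers (median 0.18). On library totals 5 rose and 5 fell, and 1 rose and 7 fell. Over all genes tested with TMM, 27.4% rose and 27.6% fell (fasted), and 25.8% rose and 27.9% fell (ob/ob). The medians were -0.044 and -0.011. Among all genes called on library totals, 11.4% were higher in each model. Rxra, the partner receptor of PPARα, rose by 1.64 (SE 0.16, edgeR adjusted p = 4.51e-06) and 1.04 (SE 0.16, adjusted p = 1.12e-04), and stayed higher on library totals (0.97 and 0.42). Rptor and Mtor, parts of the mTORC1 kinase complex that is known to restrain ketogenesis, rose in the fasted livers by 1.17 (SE 0.13, edgeR adjusted p = 1.00e-05) and 1.31 (SE 0.15, adjusted p = 1.51e-05). Rptor also rose in the ob/ob livers, by 0.74 (SE 0.13, edgeR adjusted p = 2.81e-04). Of 5 tested genes of ketone body receptors and fatty acid uptake, 2 rose and 0 fell in each model (medians 1.05 and 0.49, and 0 lower at edgeR's unadjusted p under 0.05). Of all genes tested, 27.4% rose in the fasted and 25.8% in the ob/ob livers. On library totals 2 of the 5 rose and 1 fell (fasted), and 1 rose and 0 fell (ob/ob). Slc27a5, a fatty acid and bile acid ligase, was at 1.58 (SE 0.17, edgeR adjusted p = 8.12e-06) and 1.64 (SE 0.17, adjusted p = 6.31e-06).

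The test of whether the FH effect differed between the models called 2 of the 6 genes higher in the ob/ob livers, Slc16a6 and Oxct1, and 0 lower. Of all genes tested, 4.77% were called higher and 3.65% lower. At an unadjusted p under 0.05 edgeR also gave 0 lower, and so did DESeq2 and limma-voom at adjusted p. On library totals the 2 genes were called as well (1.30 and 1.29 log2 units, edgeR adjusted p = 0.0226 and 0.0389), while the share of higher calls among all genes called moved from 56.6% to 66.7%. Without ob/ob vector replicate 2 the differences were 1.16 (edgeR adjusted p = 0.0245) for Slc16a6 and 1.44 (adjusted p = 0.00954) for Oxct1.

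**Figure D5:**
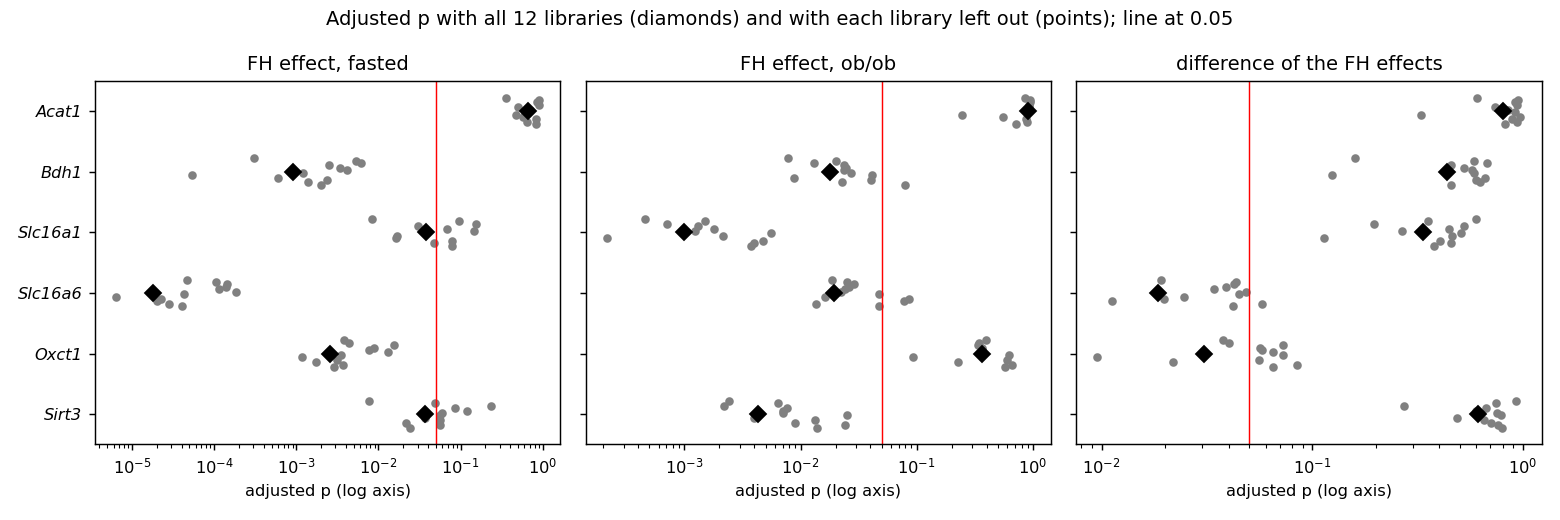
Adjusted p of each gene (log axis) with all 12 libraries (diamonds) and with each library left out in turn (points), for the FH effect in fasted livers, in ob/ob livers and the difference of these effects. The line marks 0.05, and points lie on both sides of it for the fasted effects of Slc16a1 and Sirt3, the ob/ob effects of Bdh1 and Slc16a6, and the differences of Slc16a6 and Oxct1.

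In the vector libraries, which compare ob/ob mice on HFD with fasted C57BL/6 mice, 0 of the 6 genes passed the test, against 9.36% higher and 8.18% lower of all genes tested. At an unadjusted p under 0.05 edgeR gave 2, Bdh1 and Slc16a6, both higher in the ob/ob livers, and DESeq2 called 1, Bdh1, at its adjusted p (0.0489), while limma-voom called 0. The log2 difference was 0.73 for Bdh1 (SE 0.28, edgeR adjusted p = 0.0925) and 0.54 for Slc16a6 (SE 0.19, adjusted p = 0.0693). The vector libraries of the 2 models did not overlap in Slc16a6 and overlapped in Bdh1. Without ob/ob vector replicate 2 both passed, with 0.99 (edgeR adjusted p = 0.00726) and 0.63 (adjusted p = 0.0434), and on library totals both passed too, with 0.94 (adjusted p = 0.0268) and 0.75 (adjusted p = 0.0192). Bdh1 passed as well without fasted vector replicate 1 (1.11, edgeR adjusted p = 0.0165) and with no filter on low counts (0.73, adjusted p = 8.31e-04). The share of higher calls among all genes called moved from 53.4% to 81.0% on library totals.

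In the FH libraries, 3 of the 6 genes were higher in the ob/ob than in the fasted livers and 1 was lower, against 18.6% and 21.6% of all genes tested. Slc16a6 was 3.45-fold higher (log2 1.79, SE 0.21, edgeR adjusted p = 5.41e-05), Oxct1 was 2.06-fold higher (log2 1.04, SE 0.23, adjusted p = 0.00286) and Slc16a1 was 1.75-fold higher (log2 0.81, SE 0.23, adjusted p = 0.0131). The libraries of the 2 groups did not overlap for any of these. Slc16a1 missed the threshold without fasted FH replicate 1 (0.69, edgeR adjusted p = 0.0615). Sirt3 was 1.32-fold lower (log2 -0.40, SE 0.13, edgeR adjusted p = 0.0213), a call lost on library totals (-0.15, adjusted p = 0.437), with no filter on low counts (-0.37, adjusted p = 0.0998) and without any of 5 libraries (fasted FH replicates 1 and 3 and all 3 of ob/ob FH, adjusted p up to 0.0924). Bdh1 was at 0.18 (95% interval -0.42 to 0.78, edgeR adjusted p = 0.632) and Acat1 at -0.061 (-0.56 to 0.44, adjusted p = 0.857). The share of higher calls among all genes called moved from 46.2% to 73.2% on library totals. This comparison shares its libraries with the FH comparisons above, so the values are not independent of them, and sex differs between these groups as described.

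The genes whose pattern over the 12 libraries was most like that of each gene were found by the root mean square (RMS) difference of log2 CPM, each gene centred on its own mean, among 11785 named genes averaging 1 CPM or more. For Bdh1 they were Lrrc28 (RMS 0.203 log2 units) and Fth1, the ferritin heavy chain (0.226), and for Acat1 Mpc1-ps (0.126) and Ppcs (0.135). For Slc16a1 they were Tubb4b, a tubulin (0.186), and Nr1d1, a clock repressor (0.199), and for Slc16a6 Dmpk (0.189) and Fam111a (0.231). Those of Oxct1 were Nrros (0.155) and Ccnd2, cyclin D2 (0.163), and those of Sirt3 were Zc3h13 (0.107) and Ewsr1 (0.108). None of the 6 genes was nearest to another of them.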

How the data were processed

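The authors' deposited table of raw counts per gene was used as given, 1 column per library. The alignment used STAR 2.7.11a and the build GRCm39, per the submitters' processing notes, and per the labels' protocols libraries came from total RNA with a stranded Illumina mRNA kit. How reads were counted (tool, annotation, strand) was not given in the sources used here. From 56441 symbols, 50582 matched a mouse spelling by symbol, which also gave exon lengths and overlaps from GENCODE M21 (GRCm38), and 28566 had any count. Genes passing filterByExpr (10 counts, 15 in total) were fitted with edgeR 4.0.16 in R 4.3.3 (quasi-likelihood F test, TMM, all 12 libraries, 4 group means, 8 residual degrees of freedom). Other settings used limma 3.58.1 (voom), DESeq2 1.42.0, other scalings, no filter, the comparison's own groups, the replicate number and each library left out. The steps were tested on simulated data in which few genes changed, as many up as down. That test does not cover the shift between TMM and library totals seen here. Intervals are 95% and cover the spread between libraries.

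The genes, lists and tests were chosen with earlier results of these data known. Named were Fh1, the 6 genes whatever their p, up to 3 called genes with the smallest adjusted p per list and FH comparison, genes overlapping the 6 or starting within 1000 bases, and the 2 nearest profiles of each. Malat1, Dbp and Hsd3b5 were added after their values were seen. Some genes the rule or lists held are not reported here and are left out of the counts of their lists.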

Additional observations from a re-analysis of the deposited data

Results flagged for a closer look

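The FH effect differed between the ob/ob and fasted livers, by the test of the difference itself, in 4 genes of a limited set. The set held Fh1, the genes described here, their neighbours and the genes named from lists other than markers. Of all genes tested, 4.77% were called higher and 3.65% lower in this difference. Xist and the Y-linked genes were outside the set, and of these 5, 1 was called higher and 4 lower. Malat1, Dbp, Hsd3b5 and the nearest profiles were not in the set either. Slc16a6 differed by 1.25 log2 units (edgeR adjusted p = 0.0186), a smaller fall in the ob/ob livers, with 3 of 3 FH libraries below all vector libraries in both models. Oxct1 differed by 1.23 (edgeR adjusted p = 0.0306), with 3 of 3 FH libraries below all vector libraries in the fasted model and overlapping groups in the ob/ob model. Fh1 itself differed by 1.13 (edgeR adjusted p = 0.0267), a larger rise in the ob/ob livers. The Fh1 difference missed the threshold without fasted vector replicate 2, fasted FH replicates 2 and 3 or ob/ob FH replicates 2 and 3, with edgeR adjusted p = 0.0199 to 0.0723 over the 12 fits. Among vector libraries, Fh1 was lower in the ob/ob than in the fasted livers (log2 -1.39, edgeR adjusted p = 5.78e-04). Among FH libraries it was at -0.26 (edgeR adjusted p = 0.318), so the larger rise does not mean a higher Fh1 level with FH in ob/ob. Mtor differed by -0.82 (edgeR adjusted p = 0.0296), with 1.31 in the fasted and 0.48 in the ob/ob livers, and 0.64 and -0.13 on library totals. Sex and model cannot be told apart in these differences, since the ob/ob FH libraries alone held 0 Y-linked counts.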

How the results depend on the processing

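Of the 6 genes, the count that rose with FH went from 2 to 1 on library totals in the fasted and in the ob/ob livers. It also went from 2 to 1 in the fasted livers with the replicate block. The count that fell went from 2 to 3 on library totals in the ob/ob livers, with Acat1 added. With no filter on low counts, Sirt3 in the fasted livers lost its call (edgeR adjusted p = 0.0799). Between the vector groups, the count higher in ob/ob went from 0 to 2 on library totals, 1 with no filter on low counts and 1 with DESeq2. Between the FH groups, the count lower in ob/ob went from 1 to 0 on library totals and 0 with no filter. Reversed on library totals was Slc16a1 in the fasted livers (-0.055), with the whole scale shifted. The cause of the changes with no filter and with DESeq2 was not tested.

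Over all genes, library totals gave 1090 higher and 8488 lower with FH (fasted), 1040 and 8109 (ob/ob), 361 lower in the difference, 2729 higher and 641 lower between the vector groups, and 1477 lower between the FH groups. With no filter, 1095 genes were higher in the difference. In a fit of the vector groups alone, 698 were higher and 546 lower.

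With each library left out in turn, the counts of the 6 genes higher with FH ranged from 1 to 2 in each model. The counts lower with FH ranged from 2 to 3 (fasted) and 1 to 2 (ob/ob). Those higher in the difference and between the vector groups each ranged from 0 to 2. Between the FH groups the counts ranged from 2 to 3 (higher) and 0 to 1 (lower). Over all genes they ranged from 376 to 875 higher and 190 to 776 lower (difference), 848 to 1872 higher and 793 to 1540 lower (vector groups) and 2170 to 3631 lower (FH groups).

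Same-numbered libraries did not deviate together (correlations of -0.147 to 0.108 over 12 pairs of groups and numbers). No pairing by number was seen, although a weak one could be missed this way. With the replicate block, Slc16a1 in the fasted livers was at 0.60 (edgeR adjusted p = 0.0551), the one call of the 6 genes it changed. At 26 to 199 counts a library, counting error limits Slc16a6 and Oxct1 most.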
